A study of Homo sapiens with 6 samples.

Results

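The human mitochondrial genome encodes 37 genes in the annotation used here, and 17 of them were found among the 29810 genes of the table by the prefix MT- of their symbols. They are all 13 mRNAs, both ribosomal RNAs and 2 of the 22 transfer RNAs (MT-TF and MT-TP). The other 20 transfer RNA genes were not analysed here. Every member passed the filter on low values, which asked for 1 FPKM or more in 3 or more of the 6 libraries, so 17 of 17 were tested. The samples are 3 control and 3 I1 samples of Kasumi-1, a human acute myeloid leukaemia line that carries the RUNX1-RUNX1T1 fusion. The control samples were incubated with control and the I1 samples with I1 at 0.125 µM, all for 48 h; no other agent or genetic change is named. Of I1 the labels give a code name and nothing more. A single cell line limits what the groups can stand for.

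Mitochondria keep a small circular genome that is transcribed on each strand into long precursors. Transfer RNA sequences sit between most of the genes and are cut out, which releases the mRNAs and ribosomal RNAs. Most of the mRNAs then receive short poly(A) tails. The mRNAs encode only core subunits of respiratory complexes I, III and IV and of ATP synthase. Nuclear genes supply the other subunits and all proteins of mitochondrial transcription, RNA processing and translation. Leukaemic myeloblasts are known to lean on mitochondrial respiration, which is why these transcripts are often followed in this disease.

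The annotated ends of the mRNAs are shown first because the libraries were made by a kit that selects polyadenylated RNA. The sequences are from GENCODE release 29 on hg38 (chrM), written 5′ to 3′ on the strand of the gene, with the last codon in capitals. In 6 of the 13 mRNAs the annotated transcript stops inside the last codon, after a T in 5 and after TA in 1, and the tail itself completes a stop codon. The annotated transcripts of MT-CO1 and MT-ND6 end in AGA and AGG instead, and the ends of the mRNAs in the cell were not measured here.
MT-ND1 (chrM:4245-4262, plus strand): cattccccctcaaaccTA
MT-ND2 (chrM:5494-5511, plus strand): ttatactaataatcttaT
MT-CO3 (chrM:9973-9990, plus strand): tctattgatgagggtctT
MT-ND3 (chrM:10387-10404, plus strand): gattagactgaaccgaaT
MT-ND4 (chrM:12120-12137, plus strand): ttaccgggttttcctctT
MT-CYB (chrM:15870-15887, plus strand): aaatactcaaatgggccT
MT-CO1 (chrM:7428-7445, plus strand): gtatacataaaatctAGA
MT-ND6 (chrM:14149-14166, minus strand): attgctcgggggaatAGG

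Other members share bases with a neighbour. MT-ATP8 and MT-ATP6, which encode subunits of the proton-driven part of ATP synthase, overlap by 46 bases, or 22.2% of MT-ATP8. In the shared stretch the capitals mark the start codon of MT-ATP6 and the stop codon of MT-ATP8. MT-ND4L and MT-ND4, subunits of complex I, overlap by 7 bases, which are the capitals at the end of MT-ND4L.
MT-ATP8 and MT-ATP6 shared bases (chrM:8527-8572, plus strand): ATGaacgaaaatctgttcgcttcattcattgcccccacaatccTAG
MT-ND4L 3′ end (chrM:10737-10766, plus strand): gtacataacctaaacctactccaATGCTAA

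Levels are in FPKM, a read number scaled to gene length and to the reads of the library. The library total lay between 16391000 and 18204000, and a single read over 1 kilobase gave 0.0549 to 0.0610 FPKM. With the annotated lengths the low and high values gave whole read numbers for each of the 17 members. The mRNAs other than MT-ATP8 rested on at least 2428 reads in each library, so counting error was small beside the spread between libraries. The cells carried the markers of Kasumi-1, all 8 of which were tested: KIT, the stem cell factor receptor, had 162 FPKM in the control libraries and 196 with I1, and MPO, the myeloperoxidase of myeloblasts, 8054 and 6712. The lowest of the 8 was CD38, at 1.13 and 1.62 FPKM. Of 13 markers of other blood cells 9 had a row, and 7 of these stayed under 1 FPKM in all libraries, with HBA1 at 0 in each. The other 2 were LYZ, lysozyme of myeloid cells, at 3.49 to 10.4 FPKM, and CD3D of T cells, which reached 1.27. Control replicate 1 stood apart. The deviations of its nuclear genes from the mean of the 6 libraries rose with their GC content (Spearman's rho 0.743, a description across genes). The value was -0.189 and 0.262 in control replicates 2 and 3. In I1 replicates 1, 2 and 3 it was -0.334, -0.580 and -0.505. Each I1 value lay below each control value, so the GC trend and I1 cannot be told apart in these libraries.

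Mitochondrial transcripts made up a large part of the RNA measured. The 17 genes took 14.6%, 17.9% and 16.7% of all FPKM in the controls, in replicate order, and 12.2%, 16.9% and 18.2% in the I1 libraries. The mean was 16.4% ± 1.65 in control and 15.8% ± 3.14 with I1 (SD, n = 3 each). The groups overlapped, with I1 replicate 1 the lowest library and I1 replicate 3 the highest, and the difference was smaller than the spread between replicates (exact permutation test, 2-sided p = 0.90, where 0.10 is the smallest that 3 against 3 libraries allow). The sign of the difference rested on single libraries. It was -0.605 percentage points over all libraries, 1.17 without I1 replicate 1 and 0.131 without control replicate 2. In these bulk libraries fewer mitochondria per cell, less RNA per mitochondrion and more RNA of other kinds cannot be told apart.

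Most of that share was mRNA. The 13 mRNAs took 14.4% ± 1.25 of FPKM in control and 13.5% ± 2.56 with I1, the ribosomal RNAs 1.77% ± 0.413 and 2.04% ± 0.625, and the transfer RNAs 0.215% ± 0.0542 and 0.231% ± 0.0415 (SD, n = 3 each). The exact permutation p was 0.70, 0.60 and 0.70, and 0.90 for each after adjustment over the 9 shares tested. Nearly all of the transfer RNA share was MT-TP. By reads the members took less, 4.77% ± 0.423 of the library total in control and 4.46% ± 0.994 with I1. FPKM weights short genes up, and the read share was taken of the fitted library total and not of the reads on listed genes. The part of each in the gap was not tested. Of the 10 genes with the highest mean FPKM 6 were mitochondrial, as were 11 of the 20 highest. MPO was the highest nuclear gene.

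**Figure D1:**
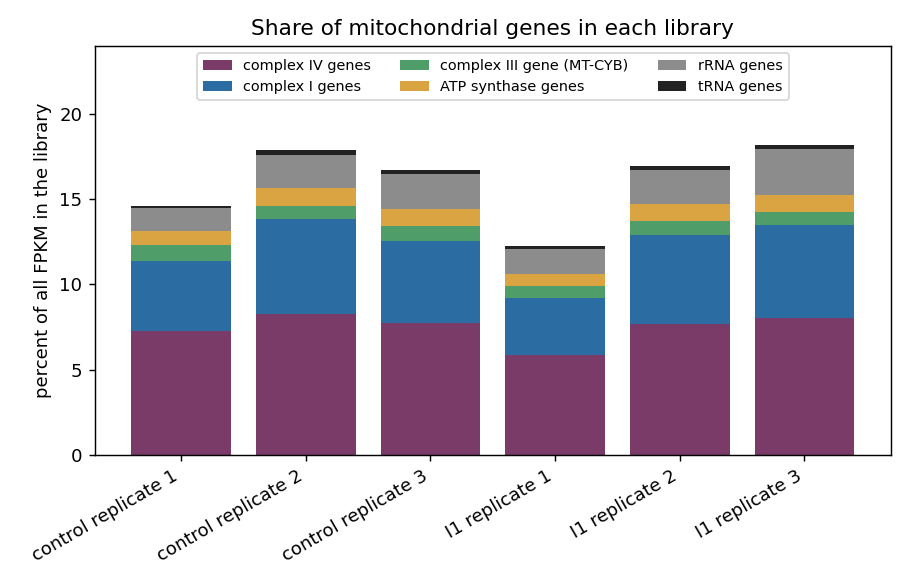
Stacked bars give the percent of all FPKM taken by mitochondrial genes in each of the 6 libraries, split by respiratory complex and RNA class. The whole bar runs from 12.2% in I1 replicate 1 to 18.2% in I1 replicate 3, and the control bars lie between them.

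The 3 mRNAs of complex IV, cytochrome c oxidase, were the highest of the members. MT-CO3, a core subunit, had 9298, 9271 and 8574 FPKM in the controls and 6752, 8322 and 8853 with I1. It ranked first among the members in each library and had the highest mean of the whole table. MPO was above it in replicate 1 of each group, at 9392 FPKM in control and 7076 with I1. MT-CO1, which carries the oxygen-reducing centre, had 5982, 7187 and 6831 FPKM against 4493, 6686 and 7035. MT-CO2, which takes electrons from cytochrome c, had 5932, 6851 and 6107 against 4319, 5951 and 6410. In all 3 genes the lowest value was that of I1 replicate 1 and the groups overlapped. The order MT-CO3, MT-CO1, MT-CO2 and then the large ribosomal RNA MT-RNR2 held in 6 of 6 libraries.

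The 7 complex I mRNAs, which encode membrane subunits of NADH dehydrogenase, spread over a wide range. MT-ND4 had 3076, 3949 and 3631 FPKM in control and 2213, 3514 and 3725 with I1. MT-ND1 had 3078, 3339 and 2972 against 2022, 2870 and 3096, and MT-ND4 was above it in 5 of 6 libraries. MT-ND2 followed with 1898, 2909 and 2072 FPKM in control and 1993, 2848 and 2938 with I1. In MT-ND2 replicate 1 was the lowest of its group, and its I1 value lay above its control value.

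MT-ND3, MT-ND4L and MT-ND5 lay close together, with means over the 6 libraries of 1403, 1358 and 1276 FPKM. Each was above the next in 4 of 6 libraries, so their order was not settled beyond the spread. MT-ND5 had 1228, 1593 and 1352 FPKM in the control libraries and 711, 1312 and 1463 with I1, and its I1 replicate 1 was 0.579 times control replicate 1, the lowest such ratio of any mRNA. MT-ND4 stood 2.56-fold ± 0.0987 above its overlapping neighbour MT-ND4L in control and 2.43-fold ± 0.269 with I1 (SD, n = 3 each).

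MT-ND6 is the only mRNA annotated on the minus strand. It had 334, 773 and 524 FPKM in control and 282, 647 and 765 with I1, lower than every other complex I mRNA in each library. Its spread was wide, with a coefficient of variation of 40.5% in control and 44.6% with I1, against 4.54% and 13.7% for MT-CO3. The ratio of MT-ND6 to MT-ND5, its neighbour on the other strand, was 0.272, 0.485 and 0.388 in control and 0.397, 0.493 and 0.523 with I1, higher in 3 of 3 pairs of the same replicate number with overlapping groups (exact permutation p = 0.20, 0.60 adjusted over 8 ratios). The sources used here do not give whether reads were counted by strand, so reads of MT-ND6 and of RNA from the opposite strand cannot be told apart. How poly(A) selection bears on the level of MT-ND6 was not tested.

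MT-CYB, cytochrome b of complex III, had 2727, 2209 and 2481 FPKM in control and 1916, 2240 and 2036 with I1. It is the only mRNA of that complex in this genome. Control replicate 1 was its highest library, whereas that library was the lowest or next lowest for MT-ND2, MT-ND3 and MT-ND6. The ratio of MT-CYB to MT-ND6 ran accordingly from 2.86 to 8.16 among the controls and from 2.66 to 6.79 with I1, without a difference between groups (exact permutation p = 0.60).

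The ATP synthase mRNAs were far apart. MT-ATP6 had 2465, 2977 and 2710 FPKM in control and 1770, 2713 and 2782 with I1. MT-ATP8 had 10.9, 26.5 and 17.8 against 13.6, 43.6 and 24.4, from 41, 95 and 65 reads in control and 46, 153 and 84 with I1. In the cell both open reading frames lie on a single mRNA, yet MT-ATP6 was listed 164-fold ± 57.9 above MT-ATP8 in control and 102-fold ± 35.6 with I1 (SD, n = 3 each). MT-ATP8 has 161 bases outside the shared stretch shown above. The sources used here do not give how fragments touching several genes were counted, and the part of the overlap in this gap was not tested.

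The ribosomal RNAs were lower than the complex IV mRNAs in these poly(A)-selected libraries. MT-RNR2, the large ribosomal RNA, had 3197, 4698 and 4779 FPKM in control and 3457, 4606 and 6297 with I1. MT-RNR1, the small ribosomal RNA, had 603, 806 and 961 against 464, 722 and 1238. In each group replicate 3 was the highest library and replicate 1 the lowest. MT-RNR2 exceeded MT-RNR1 by 5.37-fold ± 0.430 in control and 6.31-fold ± 1.19 with I1, higher with I1 in 3 of 3 pairs but with overlapping groups (exact permutation p = 0.30). The summed rRNA level was 0.122 ± 0.0224 of the summed mRNA level in control and 0.149 ± 0.0247 with I1 (exact permutation p = 0.30). These levels describe captured rRNA and not the ribosome content of the organelle.

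MT-TP, the gene of proline transfer RNA, lies on the minus strand beyond MT-CYB. It is printed here because of its high listed level.
MT-TP (chrM:15956-16023, minus strand): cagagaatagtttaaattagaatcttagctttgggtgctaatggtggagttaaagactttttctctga
MT-TP had 450, 736 and 633 FPKM in control and 491, 708 and 695 with I1, from 547 to 867 reads in a gene of 68 bases. It was above MT-ND6 in 4 of 6 libraries. As for MT-ND6, reads of MT-TP and of RNA from the opposite strand cannot be told apart. Whether they come from mature transfer RNA was not tested. MT-TF, the gene of phenylalanine transfer RNA, had 1.55, 0 and 0 FPKM in control and 0, 3.32 and 1.69 with I1, from at most 4 reads. A difference in MT-TF was not detectable at this depth.

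**Figure D2:**
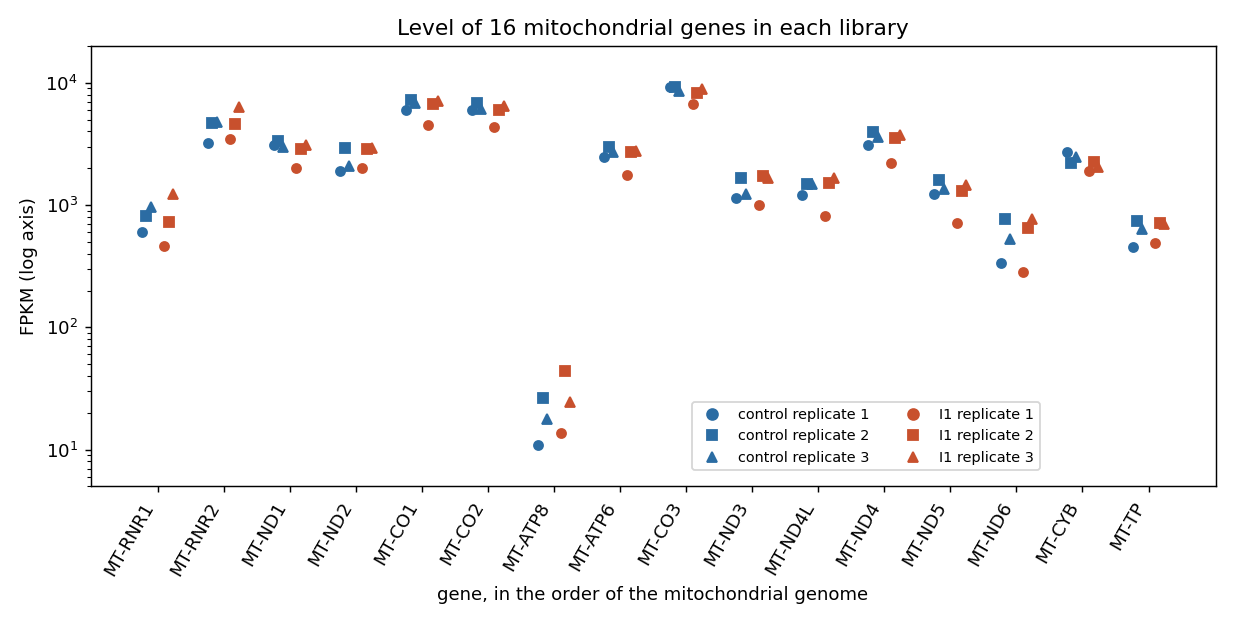
Points give the FPKM of 16 mitochondrial genes in each library on a log axis, in the order of the genome, with a symbol for each replicate number. MT-CO3 is highest in every library, MT-ATP8 lies between 10.9 and 43.6 FPKM, and I1 replicate 1 is the lowest point for most mRNAs. MT-TF is left out because it is listed at 0 in 3 libraries.

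The comparison of I1 with control asked whether any of these transcripts changed. None was called by limma on log2(FPKM + 1), which does not show that they were unchanged. Of the 17 members 0 rose, 0 fell and 17 did not pass the threshold, an adjusted p under 0.05 and a log2 difference of 1 or more either way. Over all 11913 genes tested 4 passed, or 0.0336%. This fit did not pair the replicates. At an unadjusted p under 0.05 its count was 0 of 17, against 9.57% of all genes tested. Those that were also lower were 0 of 17, against 2.77%. The adjusted p of the members in this fit ran from 0.486 to 0.987. With pairing by replicate number the unadjusted p of MT-ATP8 fell under 0.05, as given below. Groups did not overlap for 21.6% of all genes tested and for 0 of the 17 members.

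The mRNAs leaned lower with I1 without passing. Their median log2 fold change was -0.19, beside 0.03 over all genes tested, and 9 of the 13 were below 0, beside 45.5% of all genes tested. In the fit without pairing MT-CYB had the smallest unadjusted p of the members, with a log2 fold change of -0.26 ± 0.159 (SE, limma adjusted p = 0.486). MT-ND5 had the lowest log2 fold change, -0.32 ± 0.275. MT-CO1, MT-CO2 and MT-CO3 had -0.16 ± 0.223, -0.20 ± 0.206 and -0.19 ± 0.188. MT-ND1 and MT-ND4 had -0.26 ± 0.200 and -0.20 ± 0.236, and MT-ATP6 had -0.19 ± 0.214. None of them passed the threshold.

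The 4 mRNAs above 0 were MT-ND2, MT-ND3, MT-ND6 and MT-ATP8. Their log2 fold changes were 0.18 ± 0.232, 0.10 ± 0.248, 0.02 ± 0.418 and 0.48 ± 0.426 (SE), none past the threshold. MT-ATP8 was higher with I1 in 3 of 3 pairs, by ratios of 1.25, 1.65 and 1.38, on few reads. Its log2 fold change ran from 0.07 without I1 replicate 2 to 0.88 without I1 replicate 1 and was 0.17 without control replicate 1. MT-RNR2, MT-RNR1 and MT-TP had 0.16 ± 0.269, -0.06 ± 0.344 and 0.07 ± 0.226. A correction of each library for GC content took the values of MT-ND2, MT-ND3 and MT-ND6 to -0.0045, -0.18 and -0.18, so their sign was not stable, and that of MT-ATP8 to 0.18. The same correction took the median log2 fold change of the mitochondrial mRNAs from -0.19 to -0.29.

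The lean followed I1 replicate 1. It was the lowest of the 6 libraries for 11 of the 13 mRNAs, beside 10% of all genes tested. In pair 1 the I1 library was lower for 11 of 13 mRNAs (43.4% of all genes tested), in pair 2 for 9 (45.6%) and in pair 3 for 1 (49.8%). MT-CO3 shows the pattern, with ratios of I1 to control of 0.726, 0.898 and 1.03 in the 3 pairs. MT-CYB departed from it with 0.702, 1.01 and 0.821. Without I1 replicate 1 the median log2 fold change of the mRNAs was 0.03. The members share their libraries and rise and fall together, so these counts are not counts of independent events.

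**Figure D3:**
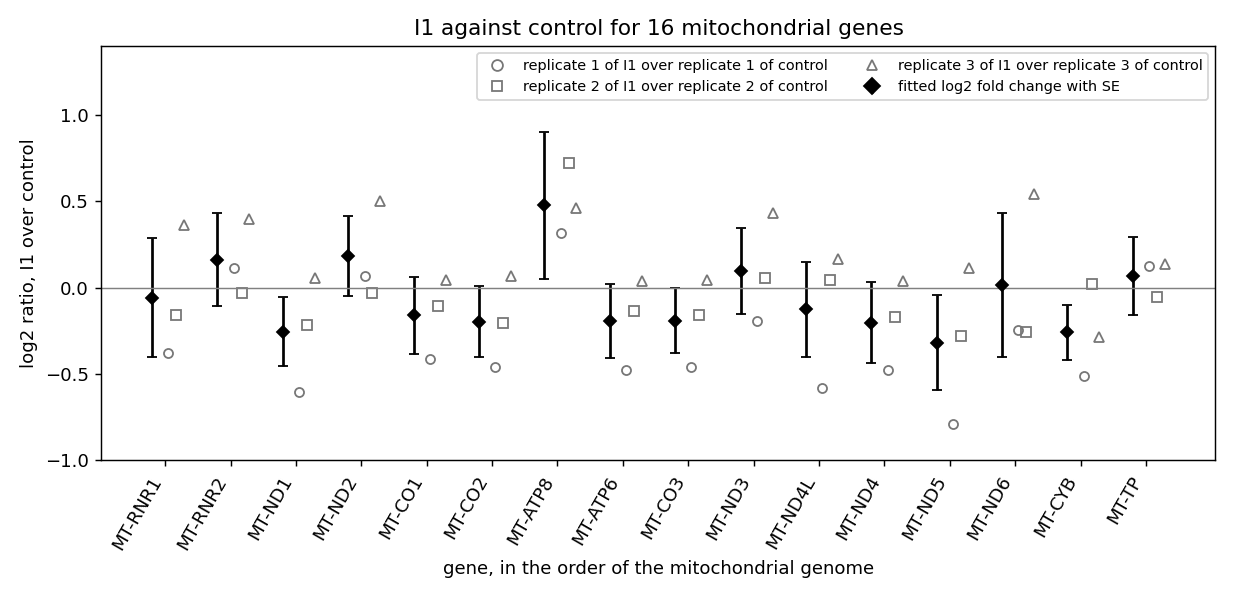
Filled diamonds give the fitted log2 fold change of I1 over control with its SE for 16 mitochondrial genes, and open symbols the log2 ratio in each pair of the same replicate number. For MT-CO1, MT-CO2, MT-CO3 and MT-ATP6 the pair 1 ratio is lowest and the pair 3 ratio just above 0, with the fitted value between.

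Expressing each mRNA as a share of the summed mitochondrial mRNA level removes the common rise and fall. It does not remove the GC trend of the libraries, and the shares were not corrected for GC content. On this scale MT-CO3 made up 22.2% ± 1.76 in control and 21.8% ± 1.81 with I1, and the 3 complex IV mRNAs together 53.9% ± 1.28 and 53.1% ± 1.64. The 7 complex I mRNAs took 33.3% ± 2.16 and 34.6% ± 2.30 (SD, n = 3 each). Within pairs of the same replicate number the signs were uniform, with MT-CO3 and the complex IV sum lower with I1 in 3 of 3 pairs and the complex I sum higher in 3 of 3. The groups overlapped for each (exact permutation p = 0.50, 0.727 adjusted over 16 shares). That test did not pair the replicates, so its p reflects the spread between pairs as well. A paired test of the shares was not run. Replicate 1 of each group had the highest share of MT-CO3, 24.2% and 23.9%, against 20.6% to 21.4% in the other 4 libraries.

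MT-ND2 had the widest gap between the groups. It took 4.94%, 6.58% and 5.18% of the mitochondrial mRNA level in control and 7.04%, 7.05% and 6.92% with I1. The groups did not overlap, and the I1 libraries differed from each other by less than the controls did. MT-ND1 took 8.02%, 7.55% and 7.43% in control and 7.14%, 7.11% and 7.29% with I1, and MT-CO2 took 15.45%, 15.50% and 15.28% against 15.27%, 14.73% and 15.10%. Both were lower with I1 without overlap. For each of the 3 the exact permutation p was 0.10, the smallest possible, and 0.533 after adjustment over the 16 shares tested. Non-overlap of 3 in 13 mRNAs, chosen here after their values were seen, is near the background, since 20.6% of all genes tested do not overlap when divided by the same mRNA sum. The gap of MT-ND2 was 1.44 percentage points and ran from 1.12 to 1.94 when any library was left out. GC content is 43.0% in MT-ND2, 47.7% in MT-ND1 and 46.2% in MT-CO2. The part of the GC trend in these gaps was not tested.

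**Figure D4:**
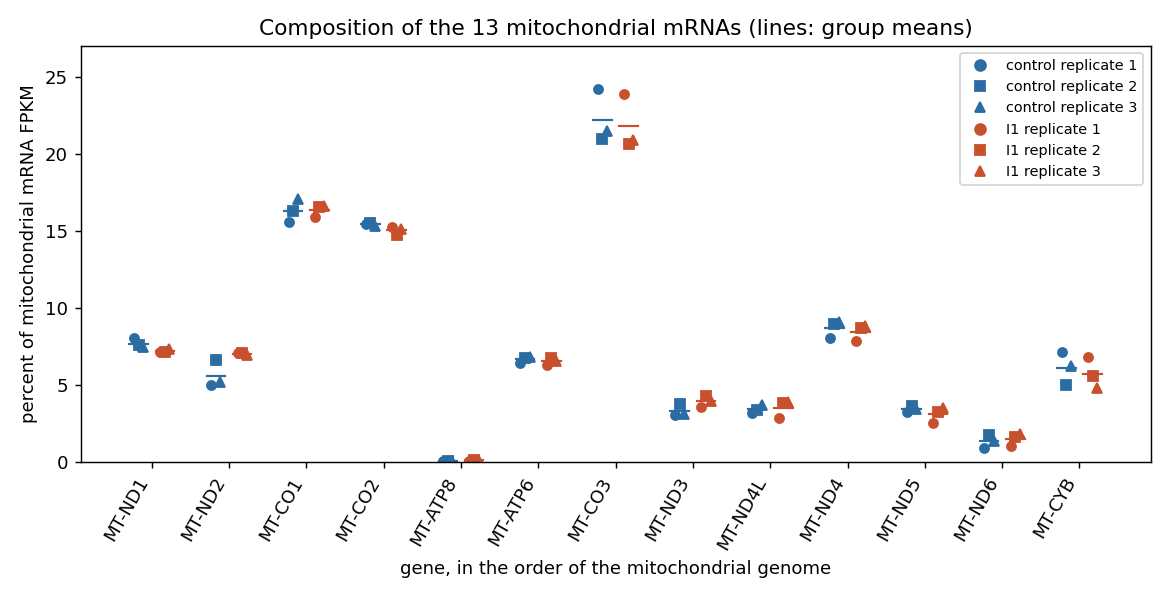
Points give each mRNA as a percent of the summed FPKM of the 13 mitochondrial mRNAs in each library, and short lines the group means. The I1 points of MT-ND2 lie at 6.92% to 7.05%, above the control points at 4.94% to 6.58%, and MT-CO3 is highest in replicate 1 of each group.

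Copies of mitochondrial genes lie in the nuclear genome and can share reads with the members. The table has 87 genes named as such copies, 82 annotated as pseudogenes and 5 as protein coding, and 3 of them reached a mean of 1 FPKM. They were MTATP6P1, MTND2P28 and MTCO1P12, neighbours on chromosome 1 between 629640 and 634376 on the plus strand of hg38. MTATP6P1 had 241, 266 and 232 FPKM in control and 144, 257 and 302 with I1. MTND2P28 had 129, 135 and 116 against 94.7, 120 and 126. MTCO1P12 had 9.21 ± 1.78 and 9.32 ± 4.17 (SD, n = 3 each). I1 replicate 1 was the lowest library in all 3, as in most mRNAs, and 0 of the 3 passed the test (log2 fold changes -0.14, -0.17 and -0.06, limma adjusted p 0.578 to 0.926).

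The copies are close to the mitochondrial genes. MTATP6P1 differs from MT-ATP6 at 10 of 681 bases, an identity of 98.5%. The 60 bases with the most differences are printed with the 3 differing bases in capitals.
MT-ATP6 (chrM:8642-8701, plus strand): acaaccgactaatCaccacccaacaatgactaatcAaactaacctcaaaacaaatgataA
MTATP6P1 (chr1:633811-633870, plus strand): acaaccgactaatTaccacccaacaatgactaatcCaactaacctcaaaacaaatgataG
Of the windows of 50 bases in MTATP6P1, 46.7% occur unchanged in a mitochondrial transcript, as do 43.5% of those in MTND2P28 and 49.4% in MTCO1P12. In the same block MTND1P23 shares 61.9% of its windows and had 0.479 FPKM, and MTCO3P12 shares 45.2% and had 0.250 FPKM. Assignment of reads between members and copies is uncertain and was not tested. Adding the FPKM of the copies to their mitochondrial genes, a setting chosen after the data were seen, left the gap of MT-ND2 at 1.42 percentage points.

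Most mitochondrial mRNAs had far higher FPKM than the nuclear genes of the same complexes. These are levels of RNA and not of protein. Of the nuclear genes, 4 of complex I and 1 of ATP synthase stayed under 1 FPKM in all libraries. They enter the medians below, and the reason for their low values was not tested. In complex IV the median of the 3 mitochondrial mRNAs was 6667 ± 619 FPKM in control and that of 11 nuclear genes 43.1 ± 3.04, a ratio of 155 ± 3.81 (SD, n = 3). With I1 it was 155 ± 23.8. In complex I the ratio was 95.5 ± 11.4 in control and 95.5 ± 17.7 with I1, for 7 mitochondrial and 37 nuclear genes. MT-CYB stood 76.5-fold ± 10.8 and 71.0-fold ± 6.34 above the median of 9 nuclear genes of complex III. Even MT-ND6 was above the highest nuclear gene of its complex, whereas MT-ATP8 lay below several of ATP synthase. The ranges of the ratio in control and I1 overlapped in all 4 complexes.

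**Figure D5:**
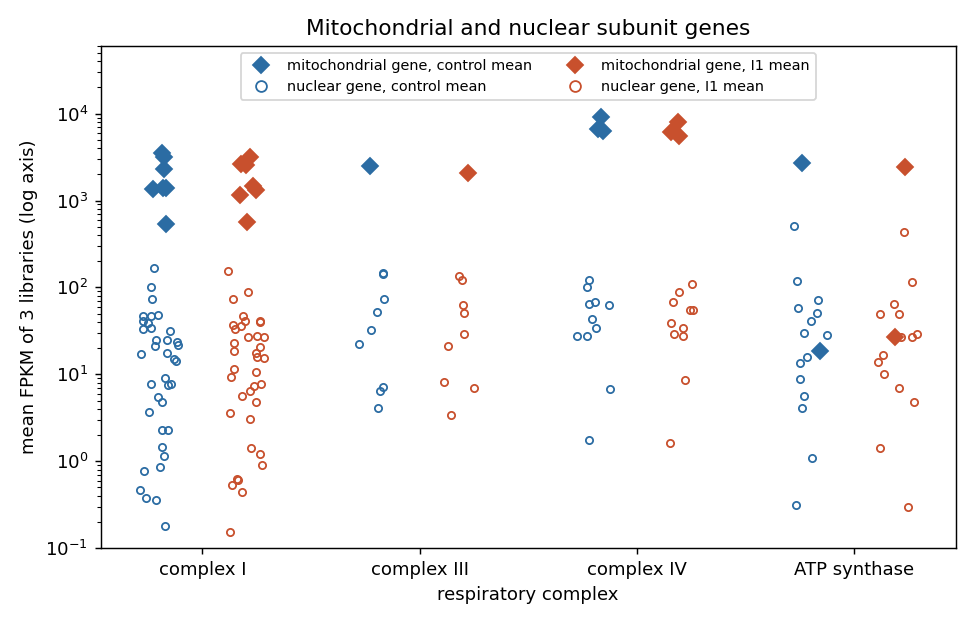
Each point is the mean FPKM of a gene over 3 libraries on a log axis, with filled diamonds for mitochondrial genes and open circles for nuclear genes of the same complex. Diamonds lie above all circles in complexes I, III and IV, and the low diamond in ATP synthase is MT-ATP8, at 18.4 FPKM in control and 27.2 with I1.

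The nuclear genes that serve this genome did not pass the test either. In 10 lists, with 153 genes tested, 0 rose and 0 fell by limma, and 7 had an unadjusted p under 0.05, or 4.58% beside 9.57% of all genes tested. Of these 7, ATP5F1D and ESRRA were lower with I1, and SDHD, TFAM, PRIMPOL, RNASEH1 and PTCD2 were higher. Of the structural lists, complex I had 16 of 31 genes below 0 (median log2 fold change -0.0026), complex III 7 of 9 (-0.12), complex IV 8 of 11 (-0.11) and ATP synthase 8 of 14 (-0.02). Complex II, which has no mitochondrially encoded subunit, had 2 of 4 below 0 (0.03). The GC correction took the medians to -0.26 for complex IV, -0.20 for ATP synthase and -0.08 for complex II. Examples are ATP5F1B, a catalytic subunit of ATP synthase, with 511 ± 35.6 FPKM in control and 439 ± 31.6 with I1, COX4I1 of complex IV with 64.8 ± 6.84 and 54.3 ± 1.94, and NDUFS5 of complex I with 167 ± 10.9 and 154 ± 18.8. The genes of smallest p in complexes I and II, NDUFV3 and SDHD, had higher values with I1, each in 3 of 3 pairs. NDUFV3 had 7.69 ± 0.508 and 9.32 ± 0.276 FPKM and SDHD 5.97 ± 2.58 and 9.46 ± 2.03. The log2 fold change of SDHD was 0.64, and 0.37 without control replicate 1, 0.91 without control replicate 2 and 0.39 with the GC correction. CYC1, cytochrome c1 of complex III, had 142 ± 9.80 and 120 ± 8.49, and SDHB of complex II 35.4 ± 2.78 and 34.6 ± 3.44 (SD, n = 3 each; limma adjusted p 0.467 to 0.899).

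Among 10 genes of mitochondrial transcription 3 were below 0 and 7 above (median 0.18). TFAM, which packages the genome and starts its transcription, averaged 13.8 ± 5.83 FPKM over the controls and 21.7 ± 2.71 over the I1 libraries. Its log2 fold change was 0.69 (limma adjusted p = 0.467). It was 0.39 without control replicate 1, 0.97 without control replicate 2 and 0.35 with the GC correction. POLRMT, the mitochondrial RNA polymerase, had 24.1 ± 4.32 and 19.4 ± 2.38. The GC correction took the median of this list to -0.0474. Replication and maintenance genes had a median of -0.04 over 19, with ATAD3A, a membrane ATPase bound to the nucleoid, at 49.0 ± 7.73 and 41.4 ± 3.18 FPKM. RNA processing and turnover genes had a median of 0.05 over 31. LRPPRC, which stabilises mitochondrial mRNAs and their tails, had 52.0 ± 5.18 and 61.5 ± 3.33 FPKM (limma adjusted p = 0.467). Most of several of these differences went with the GC correction, which took the log2 fold change of LRPPRC from 0.24 to 0.0377, of POLRMT from -0.29 to -0.0539, of ATAD3A from -0.23 to -0.0014 and of CYC1 from -0.24 to -0.0188. The median of the RNA processing list became -0.0267.

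Translation factors had a median of 0.07 over 15, with 6 below 0 and 9 above, and a median of -0.11 with the GC correction. TUFM, the mitochondrial elongation factor Tu, had 85.8 ± 15.5 FPKM in control and 67.9 ± 7.44 with I1. Regulators of mitochondrial biogenesis had a median of 0.13 over 9, with 2 below 0 and 7 above. The 2 below were PPRC1, a coactivator, at means of 27.5 and 24.9 FPKM, and ESRRA, a nuclear receptor of respiratory genes. ESRRA had 24.2 ± 6.41 and 17.3 ± 2.02 FPKM (limma adjusted p = 0.467). The GC correction took the log2 fold changes of TUFM, PPRC1 and ESRRA from -0.32, -0.14 and -0.44 to -0.18, -0.0027 and -0.23. Nothing in the labels says that replicates were separate cultures, so each p-value here reflects how far these libraries vary, a spread that could be purely technical.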

How the data were processed

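Trizol RNA of 6 Kasumi-1 samples went into TruSeq Stranded mRNA libraries, per the labels' protocols. The tools named are HISAT2, HTSeq, Trimmomatic and Cufflinks and the build is hg38, per the submitters' processing notes; the sources used here do not give versions, roles, annotation or strand use. FPKM values, computed by the authors, came as 1 deposited table of 6 sample columns, with 0 columns unused. The table's own name mentions cell lines and an agent that no column has, while the column names match the sample titles.

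Symbols, lengths and sequences came from GENCODE release 29 (29703 genes matched). Reads were recovered as FPKM times length times a fitted library total, and 95.9% of matched genes were whole within 0.05 reads in all libraries. Intervals beyond counting error were not computed. The main test was limma 3.58.1 (R 4.3.3) with an intensity trend on log2(FPKM + 1) over 11913 genes, adjusted by Benjamini-Hochberg, 2-sided. Such fold changes understate those of low genes. Shares and ratios were compared by exact permutation tests that did not pair the replicates (scipy 1.17.1). In 3 simulations of I1 against control with 200 changed genes among 11285 to 11297, 96% to 98% of those changed 4-fold were recovered. The simulated counts had the same dispersion for every gene and no GC trend or pairing. They do not give the power for smaller changes or for the members.

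Replicate numbers were taken to pair the samples: across 11913 genes, same-numbered control and I1 libraries deviated together, with r of 0.476, 0.457 and 0.412. Named are all members, the pseudogenes tested with 2 further copies of the same block chosen after their values were seen, and of each nuclear list the gene with the highest mean FPKM or the smallest p. Nuclear list genes with an unadjusted p under 0.05 are named as well. Marker genes serve as a check of identity. Members and lists were chosen with earlier results of these data known. Alternatives were other pseudocounts, filters, scalings, array weights, a GC correction, the replicate block and leaving out each library.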

Additional observations from a re-analysis of the deposited data

How the results depend on the processing

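The count of mitochondrial genes past the threshold stayed at 0 under all 18 other settings, the replicate block included, and the 10 nuclear lists kept a count of 0 wherever they were recomputed. The count of all genes past it, 4 as reported and 6 with the replicate block, was 0 with a pseudocount of 0.1 or 0.5, without a filter, with a mean of at least 5 FPKM, on scaling to nuclear genes or to all genes and with the GC correction. It was 1 with the GC correction and the replicate block, 2 under quantile normalization, 14 with array weights and 0 to 2 on leaving out a library. Some fold changes turned sign. With the GC correction, with or without the replicate block, the log2 fold change was -0.0313 for MT-RNR2, -0.0045 for MT-ND2, -0.18 for MT-ND3, -0.18 for MT-ND6, -0.39 for MT-TP and -0.0382 for MTRF1, a release factor gene with 0.29 as reported. Under quantile normalization it was 0.0566 for MT-RNR1 and 0.0882 for MT-CO1, with median-ratio scaling -0.0322 for MT-ND6 and with array weights -0.0027 for MT-TP. SDHB had 0.0101 on scaling to nuclear genes, 0.0199 on scaling to all genes and 0.01625 with array weights. The cause was not tested.

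On leaving out a library, log2 fold changes ran from -0.42 to 0.28 for MT-RNR1, -0.0587 to 0.37 for MT-RNR2, -0.28 to 0.0451 for MT-CO1, -0.31 to 0.0202 for MT-ATP6, -0.0375 to 0.35 for MT-ND3, -0.32 to 0.20 for MT-ND4L, -0.34 to 0.0342 for MT-ND4, -0.52 to 0.0027 for MT-ND5, -0.29 to 0.45 for MT-ND6, -0.13 to 0.24 for MT-TP, -0.0949 to 0.0439 for SDHB, -0.35 to 0.18 for MTATP6P1 and -0.34 to 0.30 for MTCO1P12. The difference in the share of all FPKM ran from -1.81 to 1.17 percentage points for the 17 members, -1.75 to 0.58 for the mRNAs and -0.0682 to 0.552 for the rRNAs. As a median within pairs (replicate block) it was -0.927 for the members. Differences in the share of mitochondrial mRNA ran from -0.34 to 0.42 for MT-CO1, -1.48 to 0.57 for MT-CO3, -0.0777 to 0.443 for MT-ND4L, -0.574 to 0.0629 for MT-ND4, -0.0627 to 0.392 for MT-ND6 and -0.95 to 0.10 for MT-CYB. The low read numbers of MT-ATP8 and MT-TF limit what can be seen for them.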
